A study of Mus musculus with 16 samples.

Results

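In mouse liver, 9 genes of gluconeogenesis and glucose handling were examined for DNase hypersensitive sites (DHS), stretches of open chromatin at which DNase I cuts nuclear DNA more often than elsewhere. The genes were Pck1, G6pc, Fbp1, Pcx, Ppargc1a, Tat, Gckr, Pklr and Slc2a2. A DHS was assigned to a gene when its peak overlapped the gene or the 20 kb on either side, and peaks of different lists that shared at least 1 bp were joined into 1 region. This gave 72 regions of 51482 in the whole series. Regions are numbered along each gene in the direction of transcription.

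The livers came from untreated male and female mice of the inbred strain C57BL/6J, here B6, and of CAST/EiJ, here CAST, labelled as 8 weeks old and bought from Jackson Labs. There were 16 DNase-seq libraries, 4 for each combination of sex and strain, all digested with 32 U of DNase I. The libraries of a group had been merged before peaks were called, so each group is represented by 1 peak list. The spread between livers cannot be seen in these pooled lists, which are the files used here, so no test between groups was made, and the counting intervals given here cover counting error only.

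When blood glucose is low, the liver makes glucose from lactate, glycerol and amino acids. Pyruvate carboxylase (Pcx), phosphoenolpyruvate carboxykinase (Pck1), fructose bisphosphatase (Fbp1) and glucose 6-phosphatase (G6pc) catalyse the steps that bypass the irreversible reactions of glycolysis, and glucagon, glucocorticoids and insulin set their transcription. Ppargc1a encodes a coactivator induced on fasting, and Tat encodes the tyrosine aminotransferase that feeds amino acid carbon into the pathway. The remaining genes encode the glucokinase regulatory protein (Gckr), the liver pyruvate kinase (Pklr) and the glucose transporter GLUT2 (Slc2a2).

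The sequences of 5 regions on which the results turn are given first, from the mm9 reference, which is the B6 sequence; the CAST sequence was not analysed here. The first pair are the 200 bases before the annotated starts of Pck1 (chr2:172978349-172978548, plus strand) and G6pc (chr11:101228675-101228874, plus strand), the start sites of 2 rate-controlling enzymes of the pathway, chosen with their motif matches known. The others are 181 bases centred on the highest summit of regions that differed between strains in the same direction in both sexes, also chosen with their motif matches known: an intron of Ppargc1a (chr5:51928535-51928715, plus strand; the gene is on the minus strand), the intergenic region downstream of Tat (chr8:112535478-112535658, plus strand) and an intron of Pcx (chr19:4546057-4546237, plus strand). Capitals mark ACGTCA, the core of the cAMP response element, in Pck1 and, on the other strand, in Tat; TTAATNATT, an HNF1 motif, in G6pc; TNTTTAC, a forkhead motif, in Pcx; and, in Ppargc1a, the single bases at the summits of 3 of the 4 lists, from left to right male CAST, female CAST and male B6.

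Pck1 promoter: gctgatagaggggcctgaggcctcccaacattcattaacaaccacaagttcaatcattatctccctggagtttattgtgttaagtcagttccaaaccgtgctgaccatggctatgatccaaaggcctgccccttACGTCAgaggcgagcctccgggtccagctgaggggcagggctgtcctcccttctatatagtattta
G6pc promoter: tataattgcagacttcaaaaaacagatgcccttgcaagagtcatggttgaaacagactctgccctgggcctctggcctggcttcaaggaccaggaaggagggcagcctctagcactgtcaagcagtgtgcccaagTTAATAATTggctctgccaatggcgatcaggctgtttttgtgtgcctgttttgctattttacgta
Ppargc1a region 4: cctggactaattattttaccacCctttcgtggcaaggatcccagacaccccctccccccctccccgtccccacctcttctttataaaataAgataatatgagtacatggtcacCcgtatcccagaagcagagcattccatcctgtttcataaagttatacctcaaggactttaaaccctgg
Tat region 11: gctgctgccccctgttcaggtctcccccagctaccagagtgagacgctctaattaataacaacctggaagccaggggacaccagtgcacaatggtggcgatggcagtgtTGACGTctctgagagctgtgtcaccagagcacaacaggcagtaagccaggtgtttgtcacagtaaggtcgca
Pcx region 5: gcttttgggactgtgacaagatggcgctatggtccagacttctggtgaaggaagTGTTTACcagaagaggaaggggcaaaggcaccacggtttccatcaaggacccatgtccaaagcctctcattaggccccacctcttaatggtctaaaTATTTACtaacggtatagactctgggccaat

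The Pck1 motif began 66 bases before the annotated start, and the G6pc motif began 65 bases before it. These annotated starts may lie upstream of the starts used in liver, which was not tested, so the distances hold for the annotation only. All motifs were sought on both strands in the 401 bases around each summit. There ACGTCA was found in 8 of the 72 regions and in 7.39% of all regions, TTAATNATT in 6 of 72 and 3.97%, and TNTTTAC in 11 of 72 and 21.2%. The FOXO motif TGTTTGC was found in 13 of 72 and 10.9%, the HNF4 motif CAAAGNNCA in 14 of 72 and 16.5%, and the C/EBP motif TTNNGCAA in 17 of 72 and 22.0%. The glucocorticoid receptor motif ACANNNTGT was found in 7 of 72 and 12.3%, the E-box CACGTG in 10 of 72 and 9.37%, and the STAT5 motif TTCNNNGAA in 1 of 72 and 13.2%. These are letter matches and not measured binding sites.

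The peak lists held 24888 to 39562 peaks, with more in males than in females of both strains. The value compared is the fold enrichment at the summit, which is the pileup of fragments over the local background. A peak on the genome-wide background entered a list from a fold enrichment of 1.90 in B6 males, 1.94 in B6 females, 1.90 in CAST males and 2.24 in CAST females. Of 8 hepatocyte marker genes, 5 had a DHS at the start site in all 4 lists, Fgb lacked one in CAST females, Apoa1 in both female lists and Serpina1a in all lists, whereas 0 of 6 markers of Kupffer cells and other leukocytes had one in any list. Of 5 endothelial markers, Kdr had one in both B6 lists, and Pecam1 and Lyve1 in B6 males only. Among 6 stellate and bile duct markers only Sox9 had one, in all 4 lists.

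The 9 genes were mostly open in all groups. Of the 72 regions, 44 (61.1%) were found in all 4 lists, compared with 35.6% of all regions, and 14 (19.4%) in a single list, compared with 35.2%. Pcx had 13 regions, of which 9 were in all 4 lists. Tat had 11 (6 in all 4), Slc2a2 had 9 (8 in all 4), Fbp1 had 8 (4), G6pc had 8 (5), Ppargc1a had 8 (4), Pck1 had 7 (4), and Gckr and Pklr had 4 each (2 each). By length of the window searched, Tat was the densest at 22.3 regions per 100 kb and Ppargc1a the sparsest at 5.21.

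**Figure D1:**
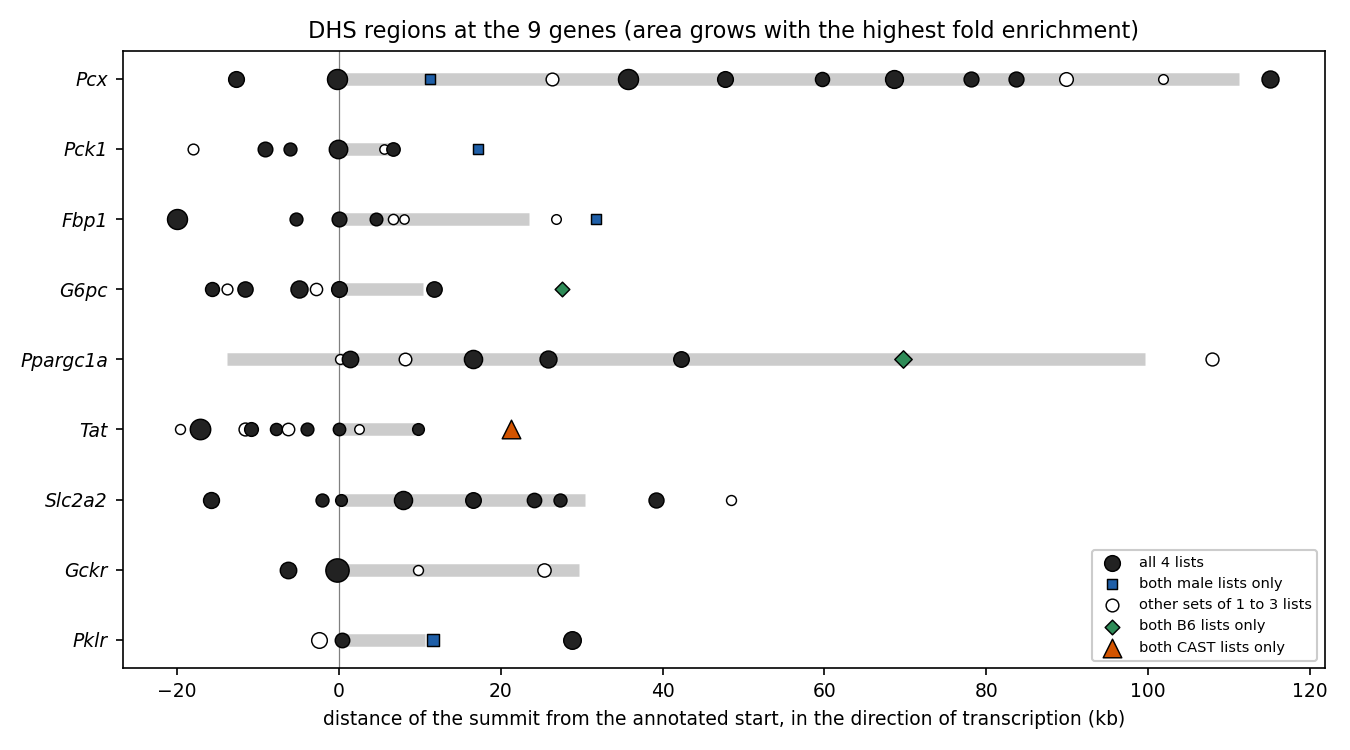
Each symbol is a DHS region, placed by the distance of its summit from the annotated start of the gene (kb, x axis) and by gene (y axis), with its area growing with its highest fold enrichment and its shape and colour giving the lists that held it; grey bars are the genes. The 44 black circles were found in all 4 lists, and the 1 orange triangle, downstream of Tat, in both CAST lists only.

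In the median the 72 regions were wider than all regions, and in summit position, distance to a start and GC content they lay near them. Median peak width was 715.5 bp in B6 males, 652.5 bp in B6 females, 708 bp in CAST males and 644 bp in CAST females, against 598, 557, 590 and 535 bp over all regions. Summits lay within 100 bp of each other across the 4 lists in 27 of the 44 shared regions (61.4%), compared with 54.5% of all shared regions. Within 2.5 kb of an annotated start lay 21 of the 72 (29.2%), compared with 32.9% of all regions. Median GC content around the summit was 49.9%, against 49.1%. None of the 72 regions had a near-identical copy elsewhere in mm9 (90% identity over 80% of the length).

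Of the 9 genes, 8 (88.9%) had a DHS over the annotated start of a protein-coding transcript in all 4 lists, as had 40.2% of the 22378 protein-coding genes and 35 of 43 other genes of glucose metabolism (81.4%). Gckr, whose product holds glucokinase inactive in the nucleus, had the highest fold enrichment of all 72 regions, at 12.9 in B6 males, 8.82 in B6 females, 14.8 in CAST males and 12.7 in CAST females. These values lay at the percentiles 98.7, 97.3, 99.3 and 99.1 of their lists. Among the start sites, Pcx followed at 10.7, 7.28, 10.4 and 8.57 in the same order of lists, and Pck1 at 8.55, 6.01, 9.01 and 6.60. At these genes both male values exceeded the female value of the same strain, as was general in these lists: over the 18309 regions in all 4 lists the male value was a median 1.34-fold the female value in B6 and 1.20-fold in CAST.

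G6pc had 6.26, 4.92, 6.34 and 6.01 at its start, Fbp1 had 5.27, 3.33, 5.47 and 5.03, and Pklr had 5.28, 4.32, 4.39 and 3.83. The Pklr region began at position 88940071 of chr3 and covered later protein-coding starts (88940494 and 88940501). The first annotated start of Pklr, 88940064, from which its distances are given, had no peak in any list. Pcx region 10, over a later protein-coding start of Pcx, had 4.94, 4.02, 5.53 and 5.62. By their highest fold enrichment, the start sites of Tat and Slc2a2 were the weakest of the 8. Tat had 3.40, 3.66, 3.24 and 2.68, and Slc2a2, the main glucose transporter of hepatocytes, had 2.77, 2.49, 2.71 and 3.18. By summit pileup, without the local background, the order was another. Tat had 183, 115, 149 and 60 fragments, against 150, 82, 128 and 52 at Pklr. Pck1 had 679, 261, 624 and 201, against 574, 230, 611 and 213 at Gckr. Slc2a2 was the lowest by pileup too, at 96, 51, 91 and 47. With 1 value for each list, the order of neighbouring genes cannot be set against a spread.

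**Figure D2:**
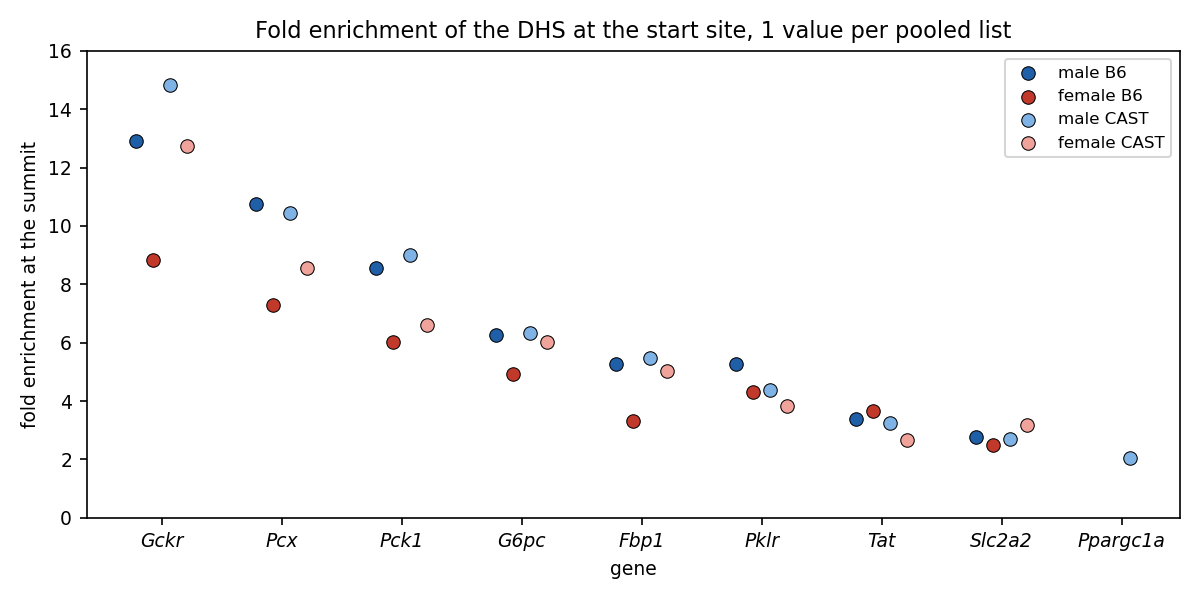
Fold enrichment at the summit (y axis) of the DHS over an annotated protein-coding start of each gene (x axis), 1 point for each pooled list. For Pklr this is a later start and not the first. Gckr is highest at 8.82 to 14.8, Tat and Slc2a2 lie between 2.49 and 3.66, and Ppargc1a has a peak at its start in CAST males only, at 2.03.

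Ppargc1a differed from the others in that none of its annotated protein-coding starts had a DHS in all 4 lists. The start from which its distances are given carried a weak peak in CAST males alone (2.03). The next region, with its summit 1.4 kb downstream of that start, was in all 4 lists, at 6.96 in B6 males, 4.99 in B6 females, 6.54 in CAST males and 5.57 in CAST females. The upstream alternative starts of Ppargc1a had no peak in any list.

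In several genes the highest value lay away from the start. For Fbp1 it was region 1, 20 kb upstream, at 10.1 in B6 males, 8.44 in B6 females, 10.7 in CAST males and 8.00 in CAST females. For Tat it was region 2, 17.2 kb upstream, at 8.62, 5.94, 11.3 and 8.27 in the same order, though the start of Marveld3 lay nearer. Between region 2 and the start of Tat lay 5 further regions. For G6pc it was region 4, 4.88 kb upstream, at 7.62, 6.34, 6.02 and 4.91, which exceeded the start site in B6 but not in CAST. For Slc2a2 it was region 4, in an intron 7.95 kb from the start, at 8.67, 4.78, 7.91 and 6.94. In B6 females region 5 was higher, at 5.29. By summit pileup region 6 of Slc2a2 exceeded region 4 in all 4 lists, at 324, 140, 319 and 116 fragments against 314, 109, 244 and 95. The highest at Pklr, region 4, overlapped the start of Clk2, and Gckr region 1 and Pcx regions 1 and 13 overlapped the starts of Ift172, 2010003K11Rik and Rce1, so their assignment to these genes rests on distance alone.

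The region just past the end of Pck1, region 6, had a fold enrichment of 4.17 in B6 males, 4.07 in B6 females, 4.40 in CAST males and 4.19 in CAST females, the narrowest range of values at that gene. G6pc region 7, beyond the end of G6pc, had 5.85, 5.12, 6.02 and 5.11 in the same order. Regions 5, 6 and 7 of Slc2a2, with summits in introns, had 2.74 to 6.20 over the lists; region 6, at 4.95, 4.04, 5.15 and 4.54, overlapped the start of an annotated Slc2a2 transcript that is not protein-coding. Regions 2 to 7 of Tat and the region at its start formed a run within 17.2 kb, of which regions 3 and 6 were missing from B6 females. Regions 5 and 6 of Ppargc1a, 25.8 and 42.2 kb into the gene, had 5.46 to 7.46 and 3.18 to 6.15.

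Of the 14 regions in a single list, 7 were in CAST males (9.72% of the 72, against 15.2% of all regions), 5 in B6 males (6.94%, against 14.2%), 2 in B6 females (2.78%, against 3.13%) and 0 in CAST females (against 2.54%). The strongest were Gckr region 4, in an intron, at 4.33 in CAST males, and Ppargc1a region 8, beyond the end of the gene, at 4.04 in B6 males. The other 12 lay between 1.75 and 2.62. The 7 regions in exactly 3 lists were all missing from B6 females, a grouping noticed after the values were seen. They were Pcx regions 4 and 11, Tat regions 3 and 6, G6pc region 5, Ppargc1a region 3 and Pklr region 1, and made up 9.72% of the 72, compared with 4.73% of all regions. Pklr region 1, 2.46 kb upstream, was the strongest of them, at 4.08 in B6 males, 6.27 in CAST males and 4.39 in CAST females.

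The first comparison asked whether these regions differed between the sexes within each strain. In B6, 16 of 64 regions were in the male list and not the female (25%), compared with 36.4% of all regions in either list, and 2 of 64 were in the female list and not the male, compared with 5.13%. In CAST, 11 of 63 were in the male list only (17.5%), compared with 40.3%, and 0 of 63 in the female list only, compared with 3.9%. The male lists were the longer. When every list was limited to its 24888 strongest peaks, 8 of 54 regions in B6 were in the male list only (14.8%), against 14.3% of all regions, and 1 of 54 in the female list only, against 13.1%. In CAST 1 of 53 was in the male list only and 1 in the female list only, against 14.9% and 13.6%.

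In both strains, 4 regions were in the male list and not in the female list (5.56%), compared with 9.38% of all regions, and 0 in both female lists alone, compared with 0.0622%. The 4 were weak. Pcx region 3, in an intron, had a fold enrichment of 2.26 in B6 males and 2.62 in CAST males. Pck1 region 7, 17.2 kb from the start, had 1.98 and 2.37. Fbp1 region 8, in an intron of the neighbouring Fbp2, had 2.56 and 2.37, and Pklr region 3, in a coding exon of Hcn3, had 2.12 and 2.76. With lists of equal length, 0 of 58 regions were in both male lists alone, against 2.29% of all regions.

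Where a region was in both sexes, its fold enrichment was compared after the log2 ratio had been centred on the median of the 18309 regions in all 4 lists. By a difference of at least 2-fold, 0 of 46 regions in B6 were higher in males and 0 in females, against 0.169% and 0.0423% of all regions. In CAST, 0 of 52 were higher in males and 0 in females, against 0.237% and 0.127%. Without centring, 1 region in CAST passed the limit, Tat region 11, at 2.03-fold higher in males, and by summit pileup 1 passed, Tat region 6, at 2.03-fold higher in females (95% counting interval 1.53 to 2.69). In both strains at once, 0 of 44 regions were 2-fold higher in males and 0 in females, against 0.0109% and 0.00546%. With backgrounds this low, the zeros are not a result about these genes.

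The centred log2 ratios of male over female ranged from -0.55 to 0.53 in B6, with a median of -0.08 over 46 regions against -0.02 over all regions. In CAST they ranged from -0.89 to 0.75, with a median of -0.04 over 52 regions against -0.01. Pck1 region 2, 9.16 kb upstream, was singled out after its values were seen, as it had the highest ratio of male over female in CAST among the 44 regions in all 4 lists and was high in B6 too. Its fold enrichment was 4.29 in B6 males, 2.34 in B6 females, 5.41 in CAST males and 3.19 in CAST females. After centring, the male value was 1.37-fold the female value in B6 and 1.41-fold in CAST, below the 2-fold limit.

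**Figure D3:**
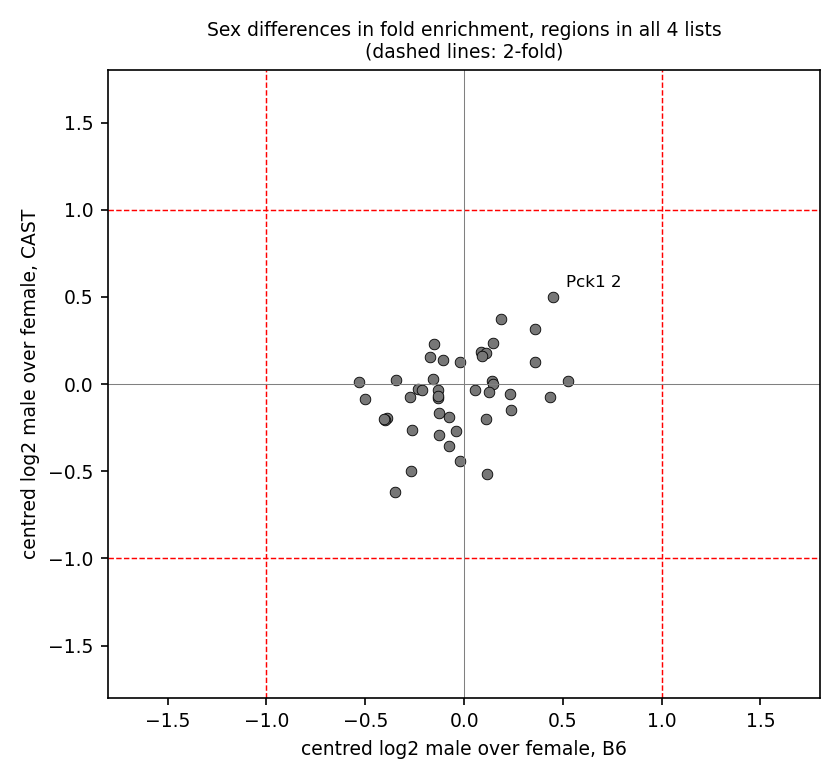
Each point is 1 of the 44 regions in all 4 lists, placed by its centred log2 ratio of male over female fold enrichment in B6 (x axis) and in CAST (y axis); dashed lines mark 2-fold. All 44 points lie inside the dashed lines, and Pck1 region 2 is the labelled point at upper right.

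In peak width by sex the members did not stand out from all regions. Of regions in both sexes, the male peak was the wider in 35 of 46 in B6 (76.1%, against 81.3% of all such regions) and in 43 of 52 in CAST (82.7%, against 87.3%). The male lists also had the deeper pileups, with a median of 79 against 61 fragments in B6 and 78 against 47 in CAST, and the part of depth in peak width was not tested.

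The second comparison, made for each sex, asked whether the strains differed. Among males, 7 of 70 regions were found in B6 and not CAST (10%), compared with 19.1% of all regions in either list, and 8 of 70 in CAST and not B6 (11.4%), compared with 20.9%. In females, 4 of 56 were in B6 only (7.14%), compared with 22.6%, and 8 of 56 in CAST only (14.3%), compared with 18.3%. Both B6 lists and no CAST list held 2 regions (2.78%), compared with 3.32%, and both CAST lists and no B6 list held 1 (1.39%), compared with 3.62%. With lists of equal length the order of these counts turned, with 1 of 58 in both B6 lists alone, against 5.64% of all regions, and 3 of 58 in both CAST lists alone, against 5.72%.

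The single CAST-only region was Tat region 11 (chr8:112535361-112535859), intergenic and 21.2 kb downstream of the start of Tat, whose sequence is given above. Its fold enrichment was 9.19 in CAST males, with a summit pileup of 167 fragments (95% Poisson interval 143 to 194), and 4.54 in CAST females, with 45 fragments (32.8 to 60.2). Neither B6 list had a peak there, although peaks on the genome-wide background entered those lists from 1.90 and 1.94. In male CAST the region stood at the percentile 92.2 of its list and in CAST females at 58.3. It lies outside the window when 10 kb is searched.

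The B6-only regions were weaker. Ppargc1a region 7, in an intron 69.8 kb from the start, had a fold enrichment of 3.61 in B6 males and 2.75 in B6 females. G6pc region 8, 27.6 kb from the start and nearer to Aarsd1 than any other annotated start, had 2.14 and 2.34, close to the weakest peaks of their lists.

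Fold enrichment was compared between the strains with ratios centred as for the sexes, which brings the median over all regions near 0. The median centred log2 ratio of B6 over CAST was -0.03 over 55 regions in males and 0.03 over 44 in females, and close to 0 over all regions in both sexes. In males 1 of 55 regions was at least 2-fold higher in B6, against 0.814% of all regions, and 1 of 55 in CAST, against 1.49%. In females 0 of 44 were higher in B6, against 0.317%, and 1 of 44 in CAST, against 0.785%. In both sexes, 0 of 44 were higher in B6, against 0.12%, and 1 of 44 in CAST, against 0.35%. Counts of 0 and 1 beside such shares are not a result about these genes as a set.

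The region higher in CAST in both sexes was Ppargc1a region 4 (chr5:51928333-51929068), in an intron 16.5 kb from the start. Its fold enrichment was 3.32 in B6 males, 2.55 in B6 females, 8.74 in CAST males and 8.75 in CAST females. Both CAST values lay above both B6 values, and the centred log2 ratio of male over female was -0.04 in B6 and -0.27 in CAST. In CAST it was the strongest region of the gene, at the percentiles 90.8 and 92.9 of the male and female lists, but in B6 it stood at 46.1 and 22.9. After centring, the CAST value was 2.49-fold the B6 value in males and 2.90-fold in females. By summit pileup over the genome-wide background, centred in the same way, the ratio was 3.33 in males (95% counting interval 2.53 to 4.44) and 4.12 in females (2.82 to 6.15). The summits of male CAST, female CAST and male B6 lay within the sequence given above, and that of female B6 lay outside it.

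G6pc region 1 (chr11:101212293-101213545), 15.6 kb upstream, was the region higher in B6 males, at 4.82 in B6 males and 2.52 in CAST males, with 3.32 in B6 females and 3.0 in CAST females. The male ratio of 2.02 was at the limit, and it was 1.91 without centring and 2.77 by summit pileup (95% counting interval 2.11 to 3.66). The female ratio was 1.31. Pcx region 5 (chr19:4545387-4546492), in an intron 35.7 kb from the start and the strongest of its gene in CAST males only, had 6.41 in B6 males, 3.73 in B6 females, 10.8 in CAST males and 8.21 in CAST females. Its CAST value was 1.59-fold the B6 value in males and 1.86-fold in females, below the limit. In females the difference passed it without centring, at a log2 ratio of B6 over CAST of -1.14, and by summit pileup, at 2.37-fold (95% counting interval 1.70 to 3.33). Pcx region 6, the next region along the gene, went the other way, with a centred log2 ratio of B6 over CAST of 0.58 in males and 0.68 in females. Its summits lay up to 499 bp apart across the lists, so this ratio compares different positions within the region. By the summits of each list, regions 5 and 6 thus differed in direction within 1 gene. Whether any of these differences exceeds the spread between livers could not be tested.

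**Figure D4:**
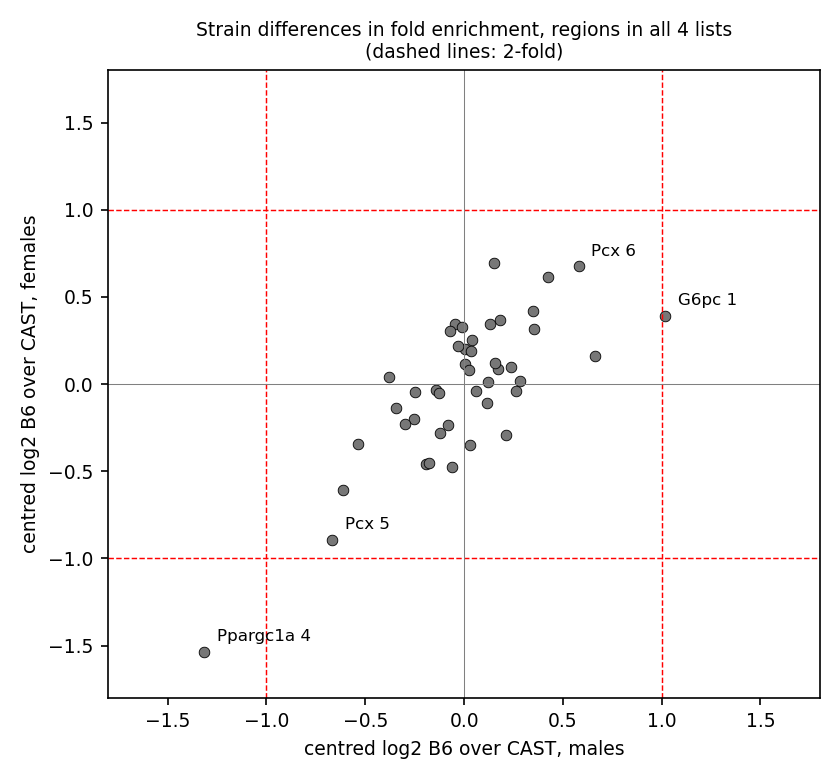
Each point is 1 of the 44 regions in all 4 lists, placed by its centred log2 ratio of B6 over CAST fold enrichment in males (x axis) and in females (y axis); dashed lines mark 2-fold. Ppargc1a region 4, at -1.32 and -1.53, is the only point past the lines in both sexes, and G6pc region 1 passes in males only.

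**Figure D5:**
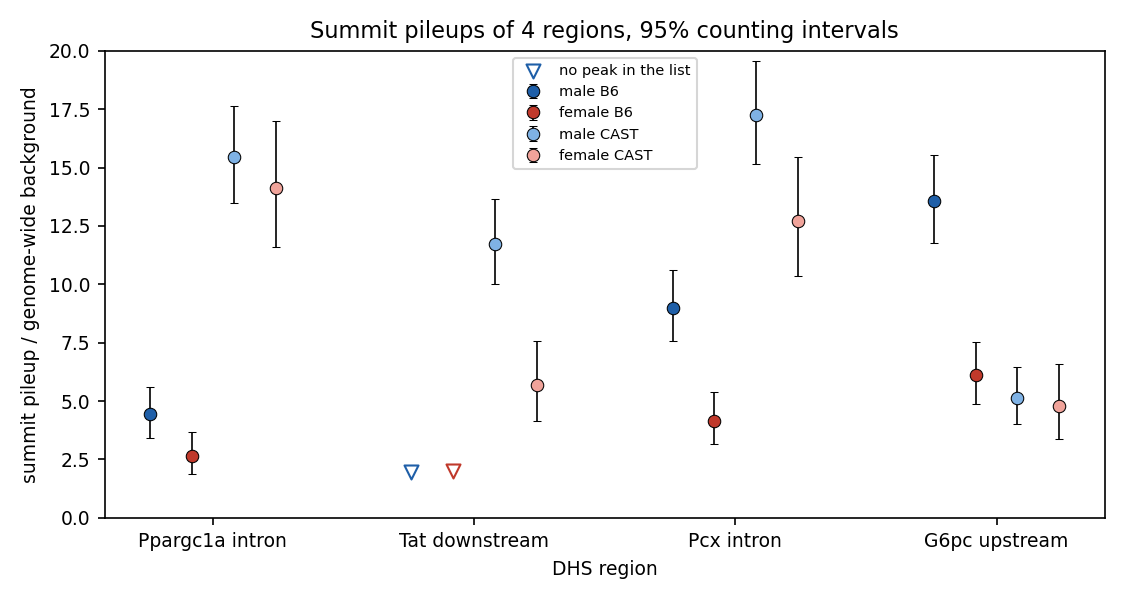
Summit pileup over the genome-wide background of the list (y axis) for 4 regions (x axis), with a point for each pooled list, bars for the 95% Poisson counting interval, and open triangles at the weakest pileup called on that background where a list had no peak. In Ppargc1a region 4 the CAST points are 15.4 and 14.1 and the B6 points 4.43 and 2.66 (males first in each pair), and for Tat region 11 both B6 lists had no peak.

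Other genes of glucose metabolism were counted for comparison. Of 44 listed genes 43 were found in the annotation, and 35 of the 43 had a start-site DHS in all 4 lists, 5 in some lists and 3 (Fbp2, Gpi1 and Hk2) in none. Outside the 9 genes they had 225 regions, of which 122 (54.2%) were in all 4 lists and 22 (9.78%) in both male lists only. At least 2-fold differences by strain were met at 1 of 161 of these regions in males (higher in B6) and at 0 of 124 in females, and 0 differed 2-fold by sex. By the distance between log2 fold enrichments over the 4 lists, the start-site DHS most like that of Gckr among 35 genes was that of Ldha (distance 0.23), the one most like Pcx was Mdh2 (0.27) and the one most like Pck1 was Eno1 (0.16).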

How the data were processed

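DNase-seq of liver nuclei was analysed from 16 libraries in 4 groups of 4, as labelled. The authors merged the libraries of a group (at the fastq level, as stated for their browser tracks), mapped reads with Bowtie2 to mm9 (for CAST, to mm9 carrying CAST variants, with positions converted back) and called peaks with MACS2; replicates thus cannot be compared in these lists. Per the file layout, the deposited values are the fold enrichment (a ratio of summit pileup to local background, each plus 1) and the −log10 p-value and −log10 q-value of each peak. Fold enrichment is relative to the local background, so it is lower where sites crowd together. Summit pileups and backgrounds were recovered from the fold and −log10 p; about 99.9% of pileups were whole within 0.02. Sequencing totals were not given in the files used; pileups set the counting intervals (Clopper-Pearson for ratios, exact Poisson for pileups, 95%).

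Peaks were joined at 1 bp overlap, and genes were taken from GENCODE annotation of the same build. Log2 ratios were centred on the 18309 regions in all 4 lists, and 2-fold was the limit. Described regions were those at a start site, strongest of their gene, limited to 1 sex or strain, or 2-fold apart in both contrasts. Other regions named (such as Pck1 region 2, Pcx region 6, G6pc regions 1 and 7, and those in 1 or 3 lists) were picked after their values were seen. The motif spellings and the 401-base window replaced a stricter set and a narrower window whose matches had been seen, and the 5 printed sequences were picked from 8 after their motif matches were seen, so motif counts are descriptions only. The members and lists were chosen with earlier results of these data known. Copies were sought with blastn 2.17.0; Python 3.11.15 with pandas 2.3.3 and scipy 1.17.1 was used, and the joining, centring and recovery were tested on simulated data.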

Additional observations from a re-analysis of the deposited data

How the results depend on the processing

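No paired analysis was possible because the libraries of each group were merged before peaks were called, so no replicate could be left out either. Joining peaks at 50% of the shorter one left the region count at 74 and regions in both male lists alone at 2. A −log10 q of at least 10 left 9 regions in a single list, 1 B6-only region in both sexes and 0 regions in female B6 without male B6. A 10 kb window left 1 B6-only and 0 CAST-only regions in both sexes, 1 region in female B6 without male B6, 5 in male CAST without male B6 and 2 in female B6 without female CAST.

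With lists of equal length, 5 of 58 regions were in a single list (8.62%, against 25.7% of all regions) and 5 in every list but female B6 (8.62%, against 3.08%), 0 regions were in both male lists alone, 1 in both B6 lists alone and 3 in both CAST lists alone; 8 were in male B6 without female B6, 1 in the reverse, 1 in male CAST without female CAST, 1 in the reverse, 4 of 57 in male CAST without male B6 (7.02%, against 16.1%) and 2 of 54 in female B6 without female CAST (3.7%, against 19.9%). Without centring, the median log2 ratio of male over female was 0.35 in B6 and 0.23 in CAST, and that of B6 over CAST in females was -0.22. By summit pileup over the genome-wide background, the male over female median in B6 was 0.11 and the B6 over CAST median in females -0.15. Ppargc1a region 4 stayed past 2-fold in both sexes without centring and by pileup; at the stricter threshold the female B6 peak was lost and gave no ratio. G6pc region 1 had a log2 ratio of 0.94 without centring and 1.47 by pileup, and at the stricter threshold gave none. Pcx region 5 in females passed 2-fold without centring (-1.14 on the log2 scale) and by pileup (-1.25), Tat region 11 by sex in CAST without centring (1.02) and Tat region 6 by pileup (-1.02). The cause of these shifts was not tested.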
